A study of Rattus norvegicus with 8 samples.

Results

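The genes described here encode the nuclear-encoded subunits of the mitochondrial respiratory chain and of ATP synthase, together with the assembly factors that carry a subunit-like name. They were taken from 8 rat liver arrays by gene name: every non-control spot named Nduf, Uqcr or Atp5 with any ending, Cox with a digit from 4 to 8, or Sdha, Sdhb, Sdhc or Sdhd. The names picked 132 spots of 122 probes for 90 genes, among 45598 probes for 35901 genes or names on the array. Of the 90 genes, 87 were bright enough to be tested, in a fit over 21717 genes, and 86 were well above background on all 8 arrays. Ndufa4l2, Cox7b2 and Cox8c were not well above background on any array and were not tested.

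The arrays measured total RNA of liver from male Wistar rats, with 4 rats per group according to the labels. Maltodextrin at 3.0 g per kg of body weight was given to the control rats. Butyrate-containing structured lipids (STL), at an isocaloric dose of 1.65 g per kg, were given daily by gavage to the STL rats. Rats of both groups went through the resistant hepatocyte protocol of chemical liver carcinogenesis from week 2 of the treatment, and livers were collected at week 8. The controls are therefore carcinogen-treated livers as well, and no untreated liver was analysed here. The question was how transcript levels in such livers differed when the lipids were given.

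The respiratory chain sits in the inner mitochondrial membrane and passes electrons from NADH (complex I) and succinate (complex II) through ubiquinone, complex III, cytochrome c and complex IV to oxygen. Complexes I, III and IV pump protons, and ATP synthase (complex V) uses the proton gradient to make ATP. A few core subunits of complexes I, III, IV and V are encoded by mitochondrial DNA, while all other subunits, and the whole of complex II, are encoded in the nucleus and imported. Hepatocytes are rich in mitochondria, whose oxidation of short- and medium-chain fatty acids, butyrate among them, feeds electrons into this chain.

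Values are log2 of the array's processed signal minus the 75th percentile of that array, so that a difference of 1 is a 2-fold change in scaled signal. The pair of arrays from controls 1 and 2 showed no more than about the noise between repeated spots of a probe (a ratio of 1.099, against 2.23 to 7.20 in the other pairs of the 28) and were counted as 1 sample. Comparisons are thus of 3 control and 4 STL samples, and control values are always listed as controls 1 and 2 averaged, control 3 and control 4, and STL values as STL 5, 6, 7 and 8. The 75th percentile of the signal lay between 304 (STL 7) and 605 (control 4). Between 54.2% (STL 7) and 62.8% (STL 6) of probes were well above background. Control 4 and STL 7 were also the lowest and highest samples in the mean over the subunits below. The part of the scaling in that order was not tested. Precision is limited by the small number of arrays. All 10 hepatocyte markers were well above background on the 8 arrays. In whole liver RNA, fewer cells of a type and less RNA per cell cannot be told apart.

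Nuclear respiratory genes are known to carry recognition sequences of the transcription factors NRF1 and GABPA near their start. The motifs searched were an NRF1 palindrome, printed in capitals in the Atp5i and Atp5g2 sequences here, the wider NRF1 motif that allows any letter at the sixth place of it, as in Ndufa5, and CCGGAAGT (GABPA, an ETS factor). The narrow motif is a case of the wider. They were sought on both strands of the 300 bases from 250 before to 50 after the start. Promoters, from RefSeq's GRCr8 assembly, were found for 77 of the 90 genes. These 4 stretches are shown because their genes are among the 13 with the smallest p in their complexes. The motif is in capitals and the strand is that of the gene.
Atp5i (subunit e of ATP synthase), chr14:1464749-1464828, plus strand: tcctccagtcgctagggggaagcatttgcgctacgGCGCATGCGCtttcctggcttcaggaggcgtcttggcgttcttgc
Atp5g2 (a gene of the c ring of ATP synthase), chr7:135678230-135678309, minus strand: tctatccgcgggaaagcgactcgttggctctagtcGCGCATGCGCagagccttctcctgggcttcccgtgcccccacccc
Ndufa5 (an accessory subunit of complex I), chr4:53971236-53971302, minus strand: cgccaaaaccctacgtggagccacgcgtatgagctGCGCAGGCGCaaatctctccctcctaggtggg
Uqcrq (a small subunit of complex III), chr10:38089979-38090035, minus strand: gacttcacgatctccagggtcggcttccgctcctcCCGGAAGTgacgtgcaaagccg
The motifs begin 76, 56, 32 and 22 bases before the start in the order listed. The wider NRF1 motif was in 16 of the 77 promoters (20.8%), in 8.59% of the 11907 promoters of genes tested and in 4.71% of all 27457. For the NRF1 palindrome the count was 6 (7.79%, against 1.67% and 0.932%) and for CCGGAAGT it was 7 (9.09%, against 7.13% and 4.01%). The median log2 difference was 0.19 with the wider NRF1 motif and 0.28 without it, and 0.30 with CCGGAAGT and 0.27 without. The lowest assembly factors, Ndufaf4 and Ndufaf5, were among the 6 with the palindrome. A match is a description of the letters and not of binding.

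Of the 87 genes tested, 76 had a higher mean in the STL livers and 11 a lower mean, by small amounts. The median log2 difference was 0.27 (1.20-fold) over the 87 genes, from -0.31 to 0.58, beside a median of 0.065 (1.05-fold) over all genes tested. A difference above 0 was found in 58.1% of all genes tested. No member passed an adjusted p of 0.05 by limma with Benjamini-Hochberg adjustment over all genes: 0 of 87, against 1 of 21717 genes in all (0.0046%), and the smallest adjusted p among the members was 0.172. At an unadjusted p under 0.05 by limma, 26 members were higher in STL and 1 was lower, where 11.6% of all genes tested were higher and 7.4% lower. These shares also stand beside the counts at that level for each complex and list below, unless another share is given. Every STL sample lay above every control sample for 20 members and below for 1, where the shares of all genes were 11.3% and 5.62%. With arrays scaled to their median the counts at an unadjusted p under 0.05 were 9 higher and 2 lower, with 7.52% and 9.02% of all genes. With quantile normalisation they were 10 and 1, with 9.65% and 8.8%. With quantile normalisation 66 of the 87 differences were above 0, as were 52.5% of those of all genes.

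**Figure D1:**
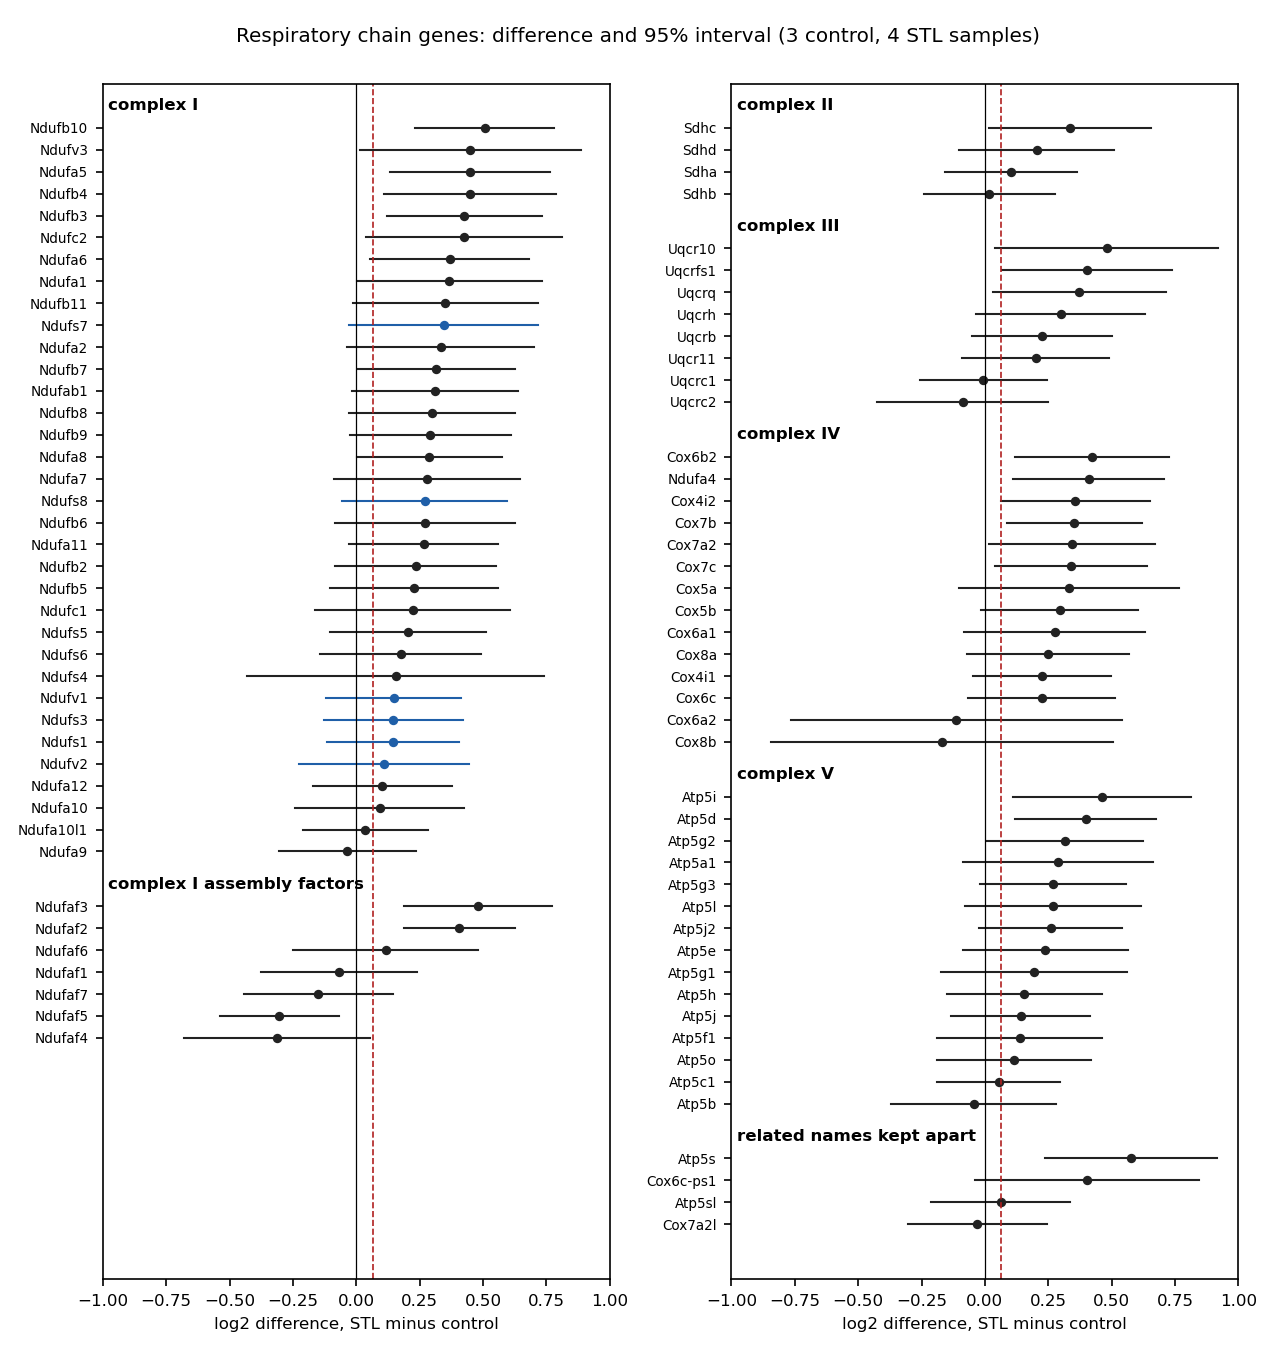
Log2 difference (STL minus control) of 86 of the 87 genes tested, with its 95% interval from limma, by complex; core subunits of complex I are blue, the black line is 0 and the dashed red line the median of all genes tested (0.065). Most points lie to the right of the dashed line, and most intervals reach 0.

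The differences were carried unevenly by the samples. Over the 76 subunits of complexes I to V, the mean log2 signal was 4.92, 4.92 and 4.70 in the controls and 5.17, 4.91, 5.20 and 5.09 in the STL livers. Control 4 was thus the lowest sample and STL 6 lay at the level of the other controls, so that the groups overlapped in this mean. This placing was not particular to the subunits. Over repeated spots of the whole array, STL 6 was nearer to controls 1 and 2 (ratios of 2.30 and 2.23) than to other STL arrays. Its ratios to STL 5, 7 and 8 were 4.13, 3.97 and 2.90. The widest ratio of all, 7.20, was between control 4 and STL 5. Control 4 had the lowest value for 65 of the 76 subunits, while STL 7 had the highest for 39 and STL 5 for 29. STL 5 stood above every control for 66 subunits, STL 7 for 59, STL 8 for 59 and STL 6 for 20. Without control 4, the median over the 76 subunits was 0.18 and 13 members were higher at an unadjusted p under 0.05 by limma (7.94% of all genes tested). Without STL 6 the median was 0.33 and the count was 40 (12.5%). The count was 12 (8.89%) without STL 5, 16 (9.5%) without STL 7 and 14 (7.91%) without STL 8. With the slide column as a block over 8 arrays, where controls 1 and 2 counted separately, it was 24 (11.0%). Of the 76 members of any kind with a higher mean in STL, the difference shrank by over 1.5 times for 31 without control 4, with 4 below 0, and for 57 with quantile normalisation, with 10 below 0.

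Markers of several cell classes also differed between these samples. The mean log2 signal of the 10 hepatocyte markers was 7.56, 7.24 and 6.88 in the controls and 7.47, 7.44, 7.84 and 7.4997 in the STL livers, and 9 of the 10 were higher in STL on average. Control 4 was again lowest and STL 7 highest, as for the subunits. The averaged controls 1 and 2 lay above STL 5, STL 6 and STL 8 in this mean. In the subunit mean they lay below STL 5 and STL 8. Of 9 cholangiocyte markers 8 were lower in STL, with means of -1.04 to 0.24 in the controls, the highest in control 4, and -2.38 to -0.89 in STL. Of 8 proliferation markers 8 were lower, with means of -0.95, 0.87 and 0.82 in the controls and -1.39, -0.73, -1.05 and -0.95 in STL, and of 9 stellate and fibroblast markers 8 were lower (1.03 to 1.72 and 0.56 to 1.05). Of 10 macrophage markers 8 were lower (2.70 to 2.77 and 2.45 to 2.95), and of 7 lymphocyte markers tested out of 10 listed 5 were higher (-3.002 to -2.57 and -2.71 to -2.35). Striated muscle markers, with 5 of 6 higher, stood at -2.42 to -2.36 and -2.28 to -2.02. At an unadjusted limma p under 0.05 the counts were 2 higher for hepatocytes, 4 lower for cholangiocytes, 7 lower for proliferation, 3 lower for stellate cells, 1 lower for macrophages, 2 higher for lymphocytes and 1 higher for muscle, and 0 marker genes were past the adjusted threshold. Among all genes tested, 11.6% were higher and 7.4% lower at that unadjusted level. The part of cell composition in the subunit differences was not tested.

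**Figure D2:**
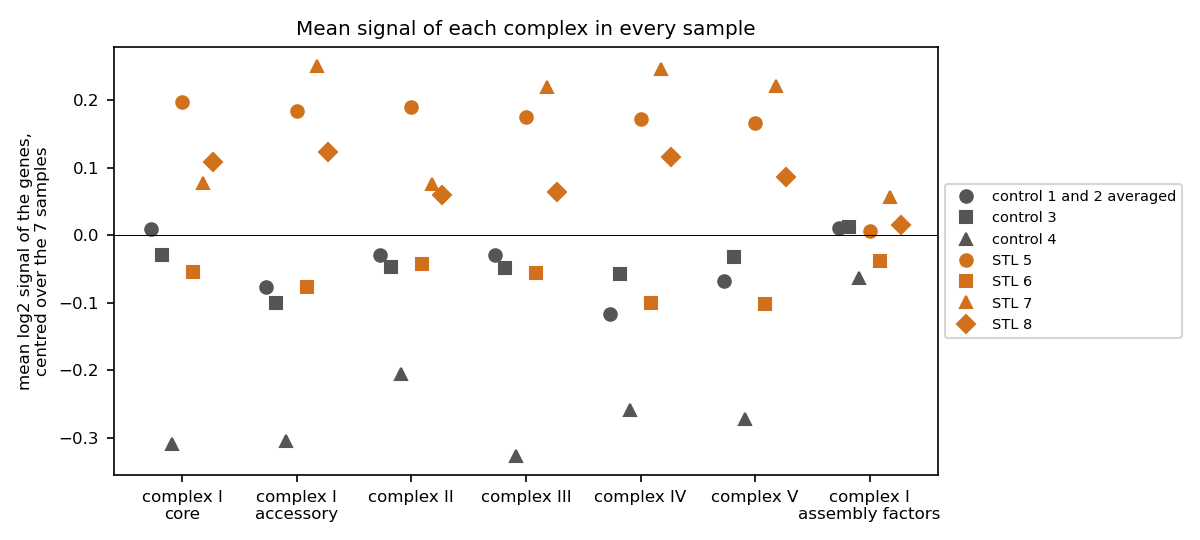
Mean log2 signal of the genes of each complex in every sample, after subtraction of its mean over the 7 samples; grey symbols are controls and orange symbols STL livers, 1 symbol shape per sample. Control 4 is the lowest point of every group drawn, and STL 6 lies among the controls.

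Complex I, the NADH dehydrogenase, was represented by 35 tested genes, of which 34 had a higher mean in STL (median log2 difference 0.27, range -0.036 to 0.51). At an unadjusted p under 0.05 by limma, 10 were higher and 0 lower. The subunits above that level were accessory ones, which surround the catalytic core and serve in assembly and stability: 10 of the 28 accessory genes against 0 of the 7 core genes, with medians of 0.29 and 0.15. Without control 4 the accessory and core medians were 0.20 and 0.080, without STL 6 0.35 and 0.23, and with quantile normalisation 0.17 and 0.038. The difference between core and accessory genes was not tested.

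Ndufb10, an accessory subunit of the membrane arm, had log2 signals of 5.22, 5.12 and 5.10 in the controls and 5.82, 5.44, 5.71 and 5.65 in STL, with its probe at chr10:13977309-13977368 (minus strand) as the files give it under the rn4 build of their headers. All 4 STL livers lay above all controls, and the lowest of them was STL 6. The means were 5.15 ± 0.066 (SD, n = 3) and 5.65 ± 0.16 (SD, n = 4), which gives 0.51 (SE 0.12, 95% interval 0.23 to 0.78) as their difference, 1.42-fold, the largest among the complex I genes tested. Its unadjusted limma p was 0.00254 and its adjusted p 0.172.

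Ndufa5, an accessory subunit of the arm that reaches into the matrix, stood at 5.74, 5.55 and 5.69 in the controls and 6.29, 5.81, 6.13 and 6.19 in STL (probe at chr4:50649500-50649558, minus strand). The groups did not overlap, with a gap that was small between STL 6 and controls 1 and 2, and the difference was 0.45 (95% interval 0.13 to 0.76, limma adjusted p = 0.183). Ndufb3, of the membrane arm, stood at 6.17, 6.07 and 5.98 in the controls and 6.67, 6.23, 6.60 and 6.51 in STL, again without overlap and with STL 6 lowest of the STL livers. Its difference was 0.43 (95% interval 0.12 to 0.73, limma adjusted p = 0.187). A second, much dimmer Ndufb3 probe, which the files place on the other strand and which was above background on 7 arrays, differed by 0.88. The other 7 accessory genes with an unadjusted limma p under 0.05 were Ndufb4 (0.45), Ndufv3 (0.45), Ndufc2 (0.42), Ndufa6 (0.37), Ndufa1 (0.37), Ndufb7 (0.32) and Ndufa8 (0.29), named here after their values were seen. For Ndufc2 the arrays of controls 1 and 2 were apart, at 4.76 and 5.42. Their average of 5.09 was the lowest control value, beside 5.54 and 5.42 in controls 3 and 4. For Ndufv3, an accessory subunit of the NADH-binding flavoprotein part, the values were 4.61, 4.40 and 3.78 in the controls and 4.70, 4.54, 4.82 and 4.79 in STL. Its difference was 0.21 without control 4, and its second probe differed by 0.013.

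The differences of the 7 core subunits lay between 0.11 and 0.34. Ndufs1, the largest iron-sulphur subunit of the NADH-oxidising module, stood at 3.89, 3.79 and 3.56 in the controls and 4.02, 3.83, 3.83 and 3.88 in STL. Control 4 was low, and the other samples overlapped (0.14, 95% interval -0.12 to 0.41, limma adjusted p = 0.5001). Ndufv1, which binds flavin mononucleotide and takes the electrons from NADH, stood at 5.76, 5.62 and 5.49 in the controls and 5.91, 5.65, 5.74 and 5.78 in STL. It overlapped in the same way, with control 4 lowest and STL 5 highest (0.15, 95% interval -0.12 to 0.41). Among other core genes, named after their values were seen, Ndufv2 differed by 0.11, Ndufs3 by 0.15, Ndufs8 by 0.27 and Ndufs7 by 0.34. The 95% interval of Ndufs7, an iron-sulphur subunit next to the ubiquinone pocket, was -0.027 to 0.72. At the other end, Ndufa9, an accessory subunit that holds the arms of the complex together, was the 1 complex I gene with a lower mean (-0.036, 95% interval -0.31 to 0.23). Ndufa10l1 differed by 0.036, and as 1 of its probes also lists an accession of its paralog Ndufa10, the values of these paralogs are uncertain. Ndufa13, which has another name in the files and so was outside the name rule, stood at 6.82, 6.74 and 6.60 in the controls and 7.20, 6.86, 6.97 and 6.997 in STL, a difference of 0.29 without overlap.

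**Figure D3:**
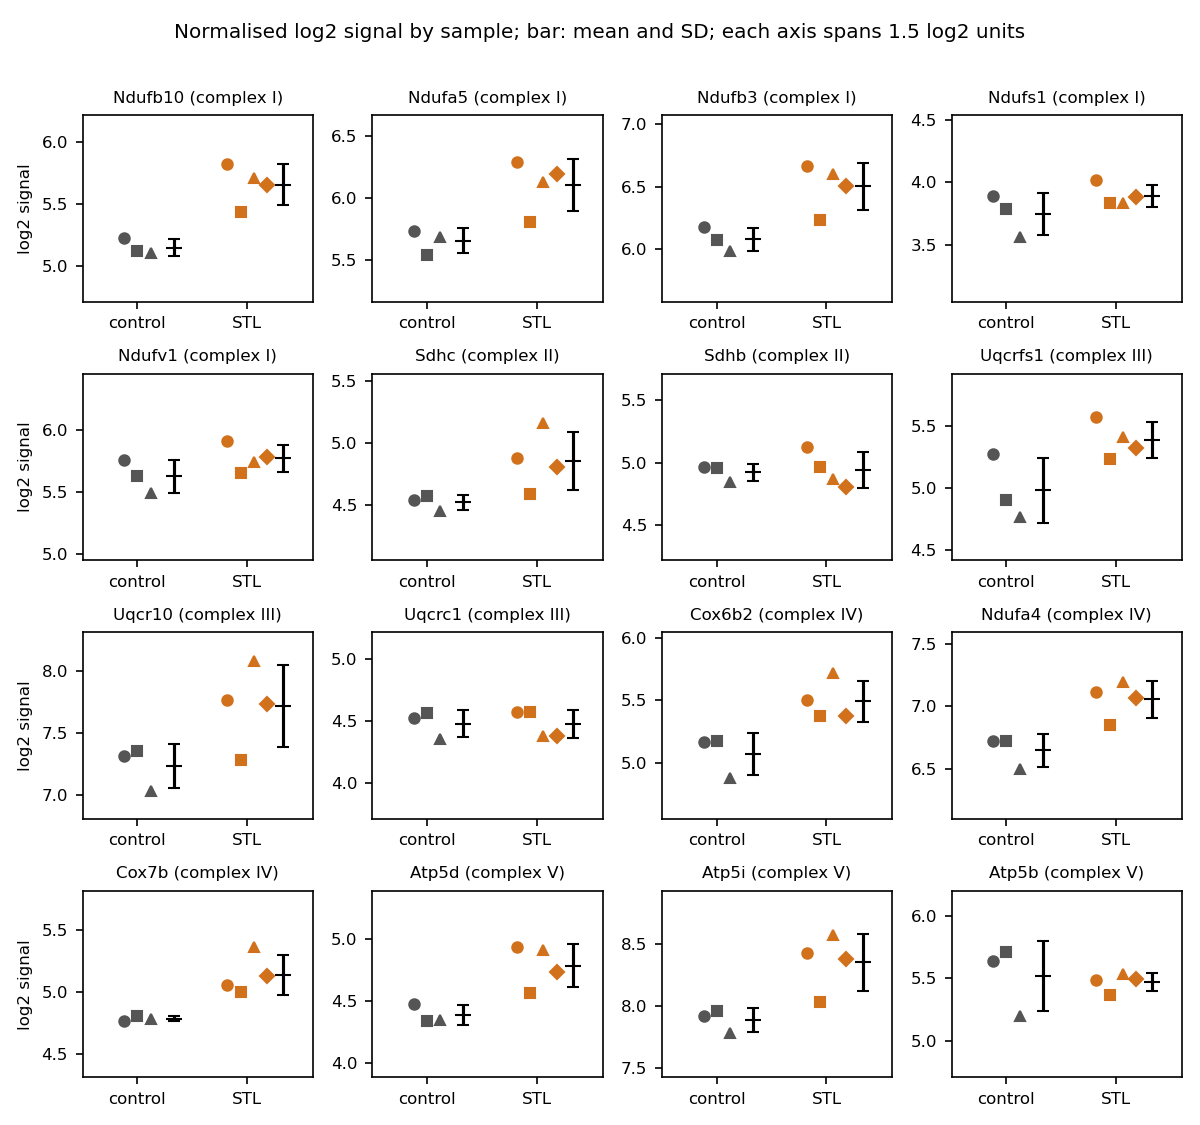
Log2 signal of 16 genes in the 3 control samples (grey) and 4 STL samples (orange), with mean and SD beside each group; symbol shapes mark samples as in the plot of means and each axis spans 1.5 log2 units. Ndufb10, Ndufa5, Ndufb3, Sdhc, Cox6b2, Ndufa4, Cox7b, Atp5d and Atp5i do not overlap between groups, whereas Ndufs1, Ndufv1, Sdhb, Uqcrfs1, Uqcr10, Uqcrc1 and Atp5b do.

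Assembly factors of complex I, which build the complex and do not stay in it, were mixed in direction. Of the 7 Ndufaf genes tested, 3 had a higher and 4 a lower mean in STL (median -0.069, range -0.31 to 0.48). At an unadjusted p under 0.05 by limma, 2 were higher and 1 was lower.

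Ndufaf3, which acts on the ubiquinone-binding module together with Ndufaf4, stood at 2.28, 2.09 and 2.12 in the controls and 2.71, 2.37, 2.81 and 2.68 in STL. The groups did not overlap (0.48, 95% interval 0.19 to 0.77, limma adjusted p = 0.173). Its partner Ndufaf4, named after its values were seen, stood at 1.99, 1.65 and 1.69 in the controls and 1.28, 1.55, 1.23 and 1.79 in STL on its brightest probe, with STL 8 inside the range of the controls. The difference was -0.31 (95% interval -0.68 to 0.052, limma adjusted p = 0.313), and the other 2 probes of the gene gave -0.54 and -0.56. Ndufaf2, a chaperone of late assembly, varied little within groups, with 2.86, 2.86 and 2.80 in the controls and 3.34, 3.22, 3.29 and 3.14 in STL (probe at chr2:39269431-39269490, minus strand). Its difference was 0.41 (95% interval 0.19 to 0.63, limma adjusted p = 0.172), and STL 6 did not stand apart from the other STL livers. Ndufaf5, which hydroxylates Ndufs7 during assembly, stood at 1.72, 1.78 and 1.87 in the controls and 1.54, 1.49, 1.36 and 1.55 in STL. All 4 STL livers were below all controls, a difference of -0.30 (95% interval -0.54 to -0.070, limma adjusted p = 0.197). Ndufaf1 (-0.069), Ndufaf6 (0.12) and Ndufaf7, a methyltransferase (-0.15, and 0.086 on its second probe), overlapped between groups.

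Of 7 complex I assembly genes with other names, 2 were higher and 5 lower (median -0.085), with 1 higher at an unadjusted limma p under 0.05. That gene was Ecsit, which works with Ndufaf1 on the membrane arm, at 4.80, 4.75 and 4.60 in the controls and 5.16, 4.85, 5.13 and 5.003 in STL (0.32, limma adjusted p = 0.213). Tmem126b, of the same assembly complex, differed by 0.14 (95% interval -0.11 to 0.39).

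**Figure D4:**
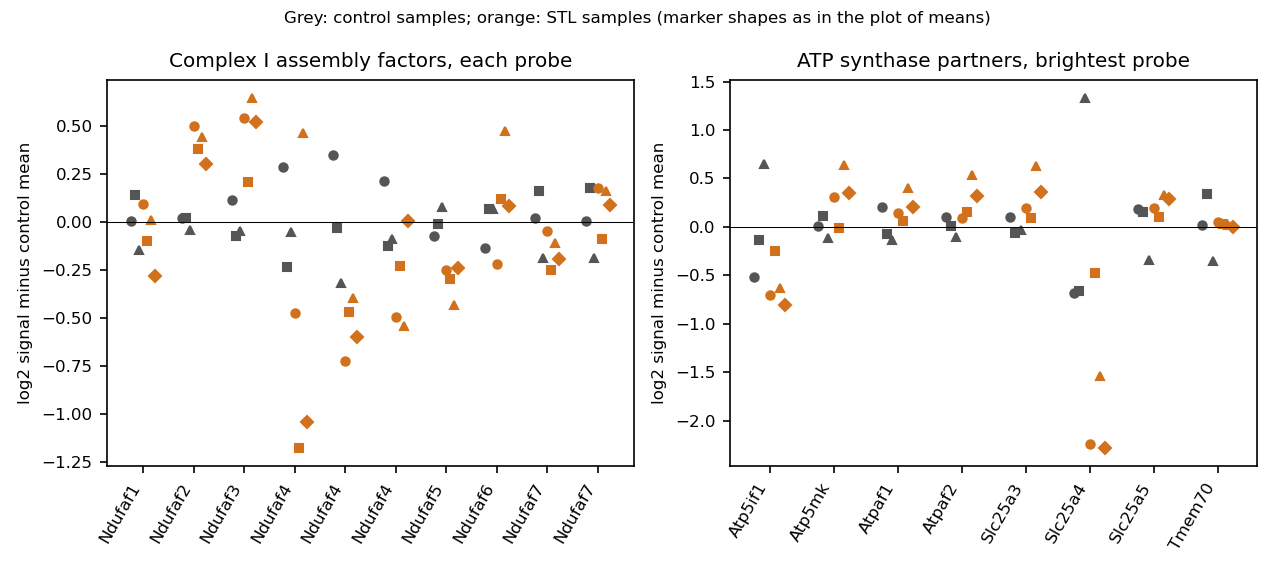
Left, log2 signal relative to the control mean for each probe of the complex I assembly factors above background on at least 4 arrays. Right, the same for the brightest probe of 8 other genes of ATP synthase or its partners. Controls are grey and STL livers orange; the orange points of Ndufaf2 and Ndufaf3 lie above the grey ones, those of Ndufaf5 below, and control 4 (grey triangle) is far above the other samples for Slc25a4 and Atp5if1.

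Complex II, succinate dehydrogenase, also a Krebs cycle enzyme, has 4 genes, and all 4 means were higher in STL, with 1 at an unadjusted limma p under 0.05 (median 0.15, range 0.018 to 0.33). The 1 was Sdhc, a membrane anchor at the ubiquinone site, with 4.55, 4.57 and 4.46 in the controls and 4.88, 4.59, 5.16 and 4.81 in STL. STL 6 was only just above control 3, and STL 7 was the highest (0.33, 95% interval 0.015 to 0.65, limma adjusted p = 0.249). The other anchor, Sdhd, differed by 0.20 (95% interval -0.10 to 0.51). Sdha, the flavoprotein that oxidises succinate, stood at 5.72, 5.74 and 5.45 in the controls and 5.80, 5.67, 5.71 and 5.77 in STL, a difference of 0.10 that was 0.0092 without control 4 and -0.021 with quantile normalisation. Sdhb, the iron-sulphur subunit, stood at 4.96, 4.96 and 4.84 in the controls and 5.13, 4.96, 4.87 and 4.80 in STL. Its values overlapped fully (0.018, 95% interval -0.24 to 0.28), and its sign turned with 4 of the other processing choices. Of 3 complex II assembly genes 2 were higher and 1 lower: Sdhaf3 differed by 0.42 (95% interval -0.0079 to 0.86), and Sdhaf2, which attaches the flavin to Sdha, by 0.19 (95% interval -0.074 to 0.45).

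Complex III, the ubiquinol-cytochrome c reductase, had 8 tested genes, 6 higher and 2 lower on average (median 0.26, range -0.088 to 0.48), with 3 higher at an unadjusted limma p under 0.05. Uqcrfs1, the Rieske iron-sulphur protein that passes electrons towards cytochrome c1, stood at 5.27, 4.91 and 4.77 in the controls and 5.57, 5.23, 5.41 and 5.33 in STL (probe at chr17:40433660-40433719, plus strand). STL 6 lay just below the averaged controls 1 and 2, and the other STL livers were above all controls (0.40, 95% interval 0.067 to 0.74, limma adjusted p = 0.212). Uqcrq, a small subunit that holds cytochrome b, stood at 7.45, 7.47 and 7.06 in the controls and 7.74, 7.53, 7.86 and 7.68 in STL, without overlap. Its difference was 0.37 (95% interval 0.032 to 0.71, limma adjusted p = 0.240), but a second, dimmer probe gave 0.020. Uqcr10, another small subunit, stood at 7.31, 7.36 and 7.04 in the controls and 7.77, 7.28, 8.08 and 7.73 in STL. STL 7 was the highest and STL 6 lay within the controls (0.48, 95% interval 0.041 to 0.92), and its second probe gave 0.55. Uqcrh, the hinge protein by the cytochrome c site, differed by 0.30 (95% interval -0.034 to 0.63).

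The core proteins, large matrix-facing subunits related to mitochondrial processing peptidases, differed little. Uqcrc1 stood at 4.52, 4.56 and 4.36 in the controls and 4.57, 4.57, 4.38 and 4.38 in STL, a difference of -0.0066 (95% interval -0.26 to 0.24). Uqcrc2 stood at 4.60, 4.63 and 4.07 in the controls and 4.33, 4.36, 4.43 and 4.28 in STL, where control 4 was low and the other controls were above every STL liver (-0.088, and -0.27 without control 4). Cyc1, the cytochrome c1 subunit of complex III, was outside the name rule and so not among its 8 genes (0.31, 95% interval -0.10 to 0.73). It was counted in a list of 9 genes with those of cytochrome c and of complex III maturation. Of this list 6 were higher and 3 lower (median 0.10), with 1 higher at an unadjusted limma p under 0.05. It was Uqcc1, needed to make cytochrome b (0.34, limma adjusted p = 0.256, and 0.18 without control 4). Cyct, the testis form of cytochrome c, was dim, above background on 5 arrays, and spread widely (-1.22, 95% interval -2.59 to 0.14).

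Complex IV, cytochrome c oxidase, had a median of 0.31 over 14 tested genes, the highest of the complexes here and in each of the 19 other settings, with 12 higher and 2 lower (range -0.17 to 0.42). At an unadjusted limma p under 0.05, 6 were higher and 0 lower. Ndufa4, long counted with complex I and now placed in complex IV, stood at 6.72, 6.72 and 6.496 in the controls and 7.11, 6.85, 7.19 and 7.07 in STL. The groups did not overlap (0.41, 95% interval 0.11 to 0.71, limma adjusted p = 0.189). Cox7b, a small subunit needed for assembly, was tight in the controls, with 4.76, 4.80 and 4.78 there and 5.05, 5.001, 5.36 and 5.13 in STL, also without overlap. Its difference was 0.35 (95% interval 0.089 to 0.62, limma adjusted p = 0.194). Cox4i1, the common form of the largest nuclear-encoded subunit, stood at 7.31, 7.30 and 7.13 in the controls and 7.52, 7.33, 7.54 and 7.502 in STL. All STL livers were above all controls, STL 6 by a small margin (0.23, 95% interval -0.047 to 0.497). Cox5b, a zinc-binding subunit, differed by 0.30 (95% interval -0.014 to 0.60), and Cox7c by 0.34 (95% interval 0.038 to 0.64).

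Several complex IV subunits exist as tissue forms. The forms usual in liver had positive differences: Cox6a1 stood at 7.93, 7.92 and 7.58 in the controls and 8.06, 7.86, 8.31 and 8.12 in STL (0.28, 95% interval -0.081 to 0.63). Cox7a2 stood at 6.55, 6.46 and 6.26 in the controls and 6.87, 6.49, 6.93 and 6.77 in STL (0.34, 95% interval 0.016 to 0.67), and Cox8a at 6.66, 6.58 and 6.44 in the controls and 7.04, 6.66, 6.63 and 6.91 in STL (0.25, 95% interval -0.071 to 0.57). STL 6 lay within the controls for all of them. Their heart and muscle counterparts had wide intervals: Cox6a2 stood at -3.91, -4.11 and -3.22 in the controls and -3.57, -4.23, -3.72 and -3.91 in STL (-0.11, 95% interval -0.77 to 0.54), and its second probe, above background on 2 arrays, gave -1.14. Cox8b was above background on 3 control and 3 STL arrays and differed by -0.17 (95% interval -0.84 to 0.504), with control 3 at -3.83 beside -4.68 and -4.76, and by 0.13 without control 3. Cox4i2, the form known from lung and low oxygen, stood at 2.82, 2.73 and 2.46 in the controls and 3.14, 2.83, 3.14 and 2.99 in STL, without overlap (0.36, 95% interval 0.064 to 0.65, limma adjusted p = 0.209). Cox6b2, known as a testis form, stood at 5.16, 5.17 and 4.87 in the controls and 5.504, 5.37, 5.72 and 5.37 in STL, again without overlap (0.42, 95% interval 0.12 to 0.73, limma adjusted p = 0.187). Its general counterpart Cox6b1 was outside the name rule under its name on the array. The Cox6b1 probe was much dimmer, at 1.75, 1.82 and 1.59 in the controls and 1.95, 1.79, 2.26 and 1.88 in STL. Its difference was 0.25 (95% interval -0.057 to 0.56). Whether the probes of these paralogs share signal was not tested, so which gene the bright Cox6b2 probe reads in liver is uncertain. The testis forms Cox7b2 and Cox8c were not well above background on any array, and Cox7a1 was not analysed here.

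Of 15 complex IV assembly genes, 12 were higher and 3 lower (median 0.20), with 5 higher at an unadjusted limma p under 0.05. Surf1, which helps to place heme in the catalytic subunit, stood at 3.66, 3.37 and 3.45 in the controls and 4.04, 3.70, 3.83 and 3.9997 in STL (0.40, limma adjusted p = 0.187). Coa7, another assembly factor, stood at 1.14, 0.97 and 1.12 in the controls and 1.4998, 1.24, 1.66 and 1.56 in STL (0.41, limma adjusted p = 0.183). Neither overlapped between groups.

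Complex V, ATP synthase, had 15 tested genes, 14 higher and 1 lower (median 0.24, range -0.043 to 0.46), with 3 higher at an unadjusted limma p under 0.05. In the catalytic head, Atp5d (now Atp5f1d), the delta subunit of the central stalk, stood at 4.48, 4.34 and 4.34 in the controls and 4.93, 4.56, 4.91 and 4.73 in STL (probe at chr7:11073061-11073120, minus strand). The groups did not overlap (0.40, 95% interval 0.12 to 0.68, limma adjusted p = 0.183). The alpha subunit Atp5a1 (now Atp5f1a) stood at 8.65, 8.65 and 8.27 in the controls and 8.79, 8.62, 9.06 and 8.76 in STL, a difference of 0.29 (95% interval -0.088 to 0.66) that was -0.023 with quantile normalisation. The beta subunit Atp5b (now Atp5f1b), which carries the catalytic sites, stood at 5.64, 5.71 and 5.19 in the controls and 5.49, 5.37, 5.54 and 5.496 in STL. Control 4 was lowest, the other controls were above every STL liver, and the difference was -0.043 (95% interval -0.37 to 0.28), or -0.20 without control 4.

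In the membrane part, Atp5i (now Atp5me), subunit e, which helps ATP synthases pair into dimers, stood at 7.92, 7.96 and 7.78 in the controls and 8.42, 8.03, 8.57 and 8.37 in STL (probe at chr14:1868395-1868454, plus strand). All STL livers were above all controls (0.46, 95% interval 0.11 to 0.81, limma adjusted p = 0.195). The c ring that turns as protons pass is encoded by Atp5g1, Atp5g2 and Atp5g3, which differ in their import sequence. Atp5g2 (now Atp5mc2) stood at 6.81, 6.78 and 6.71 in the controls and 7.004, 6.89, 7.34 and 7.11 in STL, without overlap (0.32, 95% interval 0.0081 to 0.62, limma adjusted p = 0.255), and its other 3 probes gave 0.092 to 0.22. Atp5g3 differed by 0.27 (95% interval -0.018 to 0.56) and Atp5g1 by 0.19 (95% interval -0.17 to 0.56), both with STL 6 inside the control range. Without control 4 the difference of Atp5g1 was 0.058, without STL 6 0.29 and with quantile normalisation 0.012.

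Among 8 other genes of ATP synthase or its partners, 6 were higher and 2 lower (median 0.22). At an unadjusted limma p under 0.05, 0 were higher and 2 lower. The 8 include Atp5mk, a subunit outside the name rule, with the highest difference of the list (0.32, 95% interval -0.036 to 0.68). Slc25a4, the ADP/ATP carrier best known from muscle and heart, stood at 0.81, 0.83 and 2.82 in the controls and -0.75, 1.01, -0.051 and -0.80 in STL. Control 4 was far above the rest and STL 6 was above controls 1 to 3 (-1.63, 95% interval -2.94 to -0.32, limma adjusted p = 0.206, and -0.96 without control 4). Slc25a5, the more general carrier, differed by 0.23 (95% interval -0.11 to 0.57), and by 0.062 without control 4. Atp5if1, which inhibits ATP hydrolysis by the enzyme, stood at 4.39, 4.78 and 5.56 in the controls and 4.21, 4.67, 4.28 and 4.10 in STL, with control 4 highest and STL 6 above controls 1 and 2 (-0.60, 95% interval -1.19 to -0.0030, limma adjusted p = 0.262). Without control 4 its difference was -0.27. Control 4 also had the highest mean of the cholangiocyte and stellate markers, and the part of those cells in these values was not tested.

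Names like those of subunits but of other function were kept apart, 3 of 4 higher on average. Atp5s (now Dmac2l), a factor linked to ATP synthase, had the largest difference among the members tested: 0.70, 0.47 and 0.46 in the controls and 0.98, 0.89, 1.42 and 1.17 in STL, without overlap (0.58, 95% interval 0.24 to 0.92, limma adjusted p = 0.172). Atp5sl (now Dmac2), an assembly factor of complex I, differed by 0.062, and the pseudogene Cox6c-ps1 by 0.40. Cox7a2l, which joins complexes III and IV into supercomplexes, stood at 5.28, 5.26 and 5.24 in the controls and 5.11, 5.10, 5.47 and 5.23 in STL (-0.030, 95% interval -0.30 to 0.24).

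Different probes of a gene gave differences of the same sign in most cases. Of the 27 members with several probes, 23 had more than 1 above background, and in 21 of these all probes had the same sign. As 76 of the 87 members tested were higher in STL, agreement in sign says little by itself. Among the probes above background, the median range between probes of a gene was 0.092, and the widest was 0.46 (Ndufb3). Some second probes gave values near 0, as for Ndufv3 (0.45 and 0.013) and Uqcrq (0.37 and 0.020). The mitochondrially encoded subunits were not analysed here: 0 of 26 listed names matched a probe.

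Other mitochondrial genes, from lists written with the earlier results in view, were counted in the same way. Of all genes tested, 58.1% had a difference above 0. At an unadjusted limma p under 0.05, 11.6% of all genes tested were higher and 7.4% lower. The 67 tested genes of the mitochondrial ribosome, which makes the subunits encoded in mitochondrial DNA, had a median of 0.17, with 57 higher and 10 lower, 12 higher and 0 lower at an unadjusted limma p under 0.05. Mrpl41 (0.44) and Mrpl20 (0.38) had the smallest p. Of 11 genes of coenzyme Q synthesis 10 were higher (median 0.16), with 2 at that level: Coq3, a methyltransferase of the ring, at 4.53, 4.54 and 4.48 in the controls and 5.04, 4.81, 4.99 and 4.98 in STL (0.43, limma adjusted p = 0.170), and Coq10b, a coenzyme Q-binding protein (0.87). Of 14 Krebs cycle genes 12 were higher (median 0.13), with 3 at that level, among them Dlst (0.40) and Suclg1 (0.40), enzymes of the succinyl-CoA steps. Of 18 genes of the outer membrane, import and chaperones 13 were higher (median 0.18), with 4 at that level, among them the channel Vdac1 (0.47) and the fusion protein Mfn2 (0.34). Of 18 regulators of mitochondrial biogenesis 9 were higher and 9 lower (median 0.010), with 2 higher and 2 lower at that level. The nuclear receptor Esrrg stood at 0.999, 0.42 and 0.83 in the controls and 1.13, 1.57, 1.31 and 1.28 in STL (0.57, limma adjusted p = 0.178), and the transcription factor Yy1 at -0.89, -1.10 and -1.33 in the controls and -1.47, -1.502, -1.51 and -1.57 in STL (-0.41, limma adjusted p = 0.204), both without overlap. The number of genes past the adjusted limma threshold was 0 on each of these lists.

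The medians were recomputed with 19 other processing choices or left-out samples. Over these, the median log2 difference was 0.15 to 0.33 for complex I, 0.031 to 0.20 for complex II, 0.11 to 0.34 for complex III, 0.16 to 0.39 for complex IV and 0.017 to 0.31 for complex V, and 0.019 to 0.16 for all genes tested. The lowest values of complexes I to V came with quantile normalisation.

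**Figure D5:**
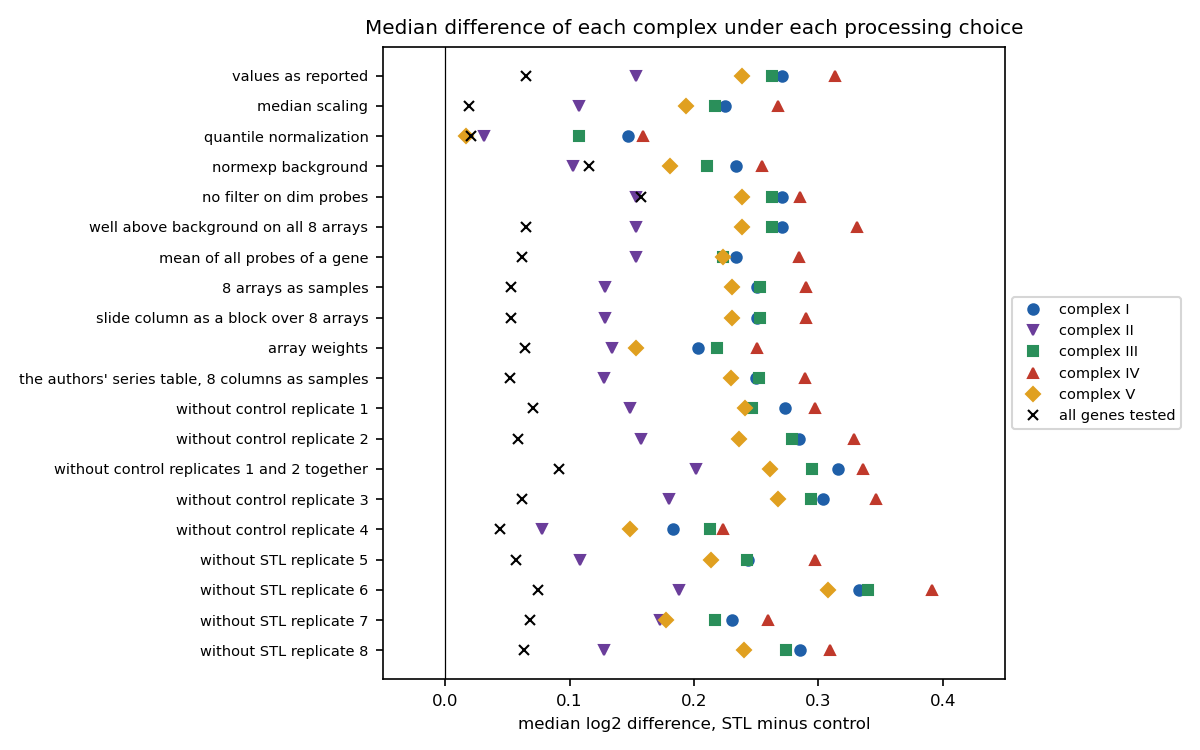
Median log2 difference (STL minus control) of the genes of complexes I to V, and of all genes tested (crosses), under the values as reported and 19 other processing choices or left-out samples. Complexes I, III, IV and V lie above the crosses except for complex V with quantile normalisation; complex II lies below them with normexp background and with no filter on dim probes.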

How the data were processed

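Liver RNA, labelled with Cy3, was hybridised to Agilent rat arrays of 1 colour, per the labels' protocols. The 8 deposited scanner files hold spot intensity made with Agilent Feature Extraction, version 11.5.1.1 in the file headers and 10.7 in the submitters' processing notes. The headers give 1 scan time. The authors' series table holds the processed intensity of each array times a constant, with column medians from 42.1 to 48.9. In 6 of its 8 columns the values come from a different array in that group, and in 0 from the other group. The identity of single rats within a group is therefore uncertain.

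Of 58717 non-control spots, those marked as non-uniform or population outliers were left out, and spots of a probe were averaged. The 75th percentile of each array was subtracted from log2 of its processed signal, and the brightest probe stood for a gene. Only genes measured well above background by 4 or more arrays were fitted, with limma 3.58.1 in R 4.3.3 (lmFit, eBayes with intensity trend, two-sided, Benjamini-Hochberg over 21717 genes, threshold 0.05). Probes were named by RefSeq accession (23740), symbol (5159), synonym (352) or the file (16347). Controls 1 and 2 were averaged because their arrays differed by under 1.5 times the noise between spots. The labels count them as separate rats.

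A simulation of the comparison of STL with control, with 200 changed among 21717 genes, had 49.0% of changes of 1 on the log2 scale called, 86.5% of changes of 2 and 92.7% of changes of 3. Noise was drawn for each gene separately, and no change smaller than 1 was simulated. How often changes of the size seen in the members, 0.58 at most, would be called was not tested. Median differences of lists are descriptions without a test. Named genes were, by rule, at most 3 per direction and complex with the smallest unadjusted p under 0.05, fixed catalytic and isoform genes, assembly factors past that level, genes whose probes differed by over 1 on the log2 scale and at most 2 genes per other list, and 1 such gene was left out of the text. The members, the lists and this rule were chosen with earlier results of these data known. The 19 alternatives were median and quantile scaling, normexp background, filters, probe averaging, sample counting, slide column, array weights, the series table and left-out samples. Python 3.11.15 with pandas 2.3.3 and matplotlib 3.10.9 read the files and drew the plots.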

Additional observations from a re-analysis of the deposited data

Results flagged for a closer look

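In 85 groups of 4 STL values tested for a sample far from the others, 3 had a lowest value whose gap to the next exceeded Dixon's 95% critical value, all of them in STL 6; chance alone marks about 1 in 20 such groups, and the genes share the same 4 livers. Cox4i1 stood at 7.33 in STL 6 and between 7.502 and 7.536 in the other STL livers. Atp5g1, of the ATP synthase c ring, stood at 6.82 in STL 6 and between 7.20 and 7.25 in the others. Ndufs3, a core subunit of complex I, stood at 4.23 in STL 6 and between 4.53 and 4.59 in the others. The differences without STL 6 were 0.27, 0.29 and 0.23.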

How the results depend on the processing

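No paired analysis was possible because the labels number the controls 1 to 4 and the STL rats 5 to 8, with no shared number. The slide column was a block over 8 arrays instead, with the near-identical controls 1 and 2 as separate samples. That fit gave 24 members higher at an unadjusted limma p under 0.05 (11.0% of all genes tested). All 19 alternatives kept the median of each of complexes I to V above 0, and also that of all genes tested (0.019 to 0.16). The count of genes past the adjusted limma threshold moved from 1 to 21 with 8 arrays as samples, 10 with the series table, 215 without controls 1 and 2 and 1636 with array weights, and lay between 1 and 46 with single samples left out, 46 without STL 6 and 3 without control 3. For the members it was 6 with array weights (Atp5d, Atp5s, Ndufa5, Ndufaf2, Ndufaf3 and Ndufb10, adjusted p from 0.0357 to 0.0471) and 0 in the 18 others. Members higher at an unadjusted p under 0.05 were 9 with median scaling (7.52% of all genes), 10 with quantile normalisation (9.65%) and between 12 and 40 with single samples left out: 12 without STL 5 (8.89%), 13 without control 4 (7.94%), 14 without STL 8 (7.91%), 16 without STL 7 (9.5%) and 40 without STL 6 (12.5%). With quantile normalisation the medians were 0.031 for complex II, 0.11 for III, 0.16 for IV and 0.017 for V, and 0.11 over the 76 subunits. The median of all genes tested was then 0.021, above that of complex V. The causes of these shifts were not tested.

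Several of the named genes changed sign, with differences as reported between -0.17 (Cox8b) and 0.12 (Ndufaf6), except Atp5a1 with 0.29. Members not named also did: of the 76 with a higher mean in STL, 10 were below 0 with quantile normalisation, and not all are listed here. With quantile normalisation the values were -0.021 for Sdha, -0.11 for Sdhb, -0.023 for Atp5a1, -0.094 for Ndufa10l1 and -0.011 for Ndufv2. With median scaling they were -0.027 for Sdhb and -0.0092 for Ndufa10l1. With normexp background they were -0.018 for Sdhb, 0.15 for Cox6a2, 0.20 for Cox8b and -0.014 for Ndufa10l1. Array weights gave -0.045 for Sdhb, 0.10 for Cox6a2, -0.0065 for Ndufa10l1 and -0.015 for Ndufv2. Without controls 1 and 2 together Uqcrc1 stood at 0.014 and Atp5b at 0.020. With single samples left out, the differences ranged, for Sdhb from -0.045 to 0.064, for Uqcrc1 from -0.068 to 0.035, for Atp5b from -0.20 to 0.055, for Cox6a2 from -0.29 to 0.15, for Cox8b from -0.33 to 0.13, for Cox7a2l from -0.11 to 0.012, for Uqcrc2 from -0.27 to 0.012, for Ndufa9 from -0.15 to 0.053, for Ndufaf1 from -0.14 to 0.0022, for Ndufaf6 from -0.0041 to 0.23, for Ndufa10l1 from -0.038 to 0.072, for Ndufv2 from -0.026 to 0.21. The cause was not tested. Signal over background limits the second Cox6a2 probe, Cox8b, Cyct and the 3 untested genes.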
